A study of Mus musculus with 2 samples.

Results

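The 10 genes described here encode receptors that restrain or support T cells, together with 1 transcription factor of chronically stimulated T cells. They were listed by symbol as well-known checkpoint and costimulatory genes of T cells, and all 10 were found among the 32285 genes counted. Pdcd1, Lag3, Havcr2, Tigit and Ctla4 encode inhibitory receptors, Icos and the TNF receptor superfamily members Tnfrsf4 (OX40), Tnfrsf9 (4-1BB) and Tnfrsf18 (GITR) encode costimulatory receptors, and Tox encodes the transcription factor. Their counts were read in CD8 T cells, CD4 T cells, Foxp3-positive T cells and natural killer (NK) cells of pancreatic tumors.

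The tumors grew from K210 cells placed in the pancreas of male C57BL/6J mice bought at 5 to 6 weeks of age. K210 is a line of mouse pancreatic tumor cells, and the T and NK cells described here belong to the C57BL/6J host. In the study's model, treatment began 7 days after implantation and was given intraperitoneally. The PBS group received buffer, and the cmExoaCD11b group received exosomes displaying an antibody to CD11b, loaded with cGAMP (a STING agonist, 5 µg per mouse) and with mRNA for IL-12. Cells of 3 mice per group were pooled 48 h after treatment into 1 droplet library (10x Genomics), and with 1 library on each side no test between the groups was possible and nothing below is checked by replicates.

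T cells start a response when the antigen receptor and a costimulatory receptor such as CD28 are engaged together. Activation then brings out further receptors. OX40, 4-1BB and GITR bind ligands of the TNF family and signal through TRAF adaptors to sustain survival and division. PD-1 (Pdcd1), LAG-3, TIM-3 (Havcr2), TIGIT and CTLA-4 limit the response, and several of them appear together with TOX on T cells that meet antigen for a long time, a state known as exhaustion. Regulatory T cells, marked by Foxp3, carry CTLA-4 and GITR constitutively. Antibodies to PD-1 and CTLA-4 are in clinical use, and pancreatic cancer is known for a poor response to them.

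The kept cells numbered 6830 in the PBS library (median 3462 UMIs, unique molecular identifiers, that is, counted transcript molecules) and 7060 in the cmExoaCD11b library (median 4122 UMIs). Cells were gated by UMIs of marker genes. A CD8 T cell had a UMI of Cd3d, Cd3e or Cd3g and of Cd8a or Cd8b1 and none of Cd4 or Foxp3. A CD4 T cell had Cd3 and Cd4 without Cd8 or Foxp3, a Foxp3-positive cell had Cd3 and Foxp3 without Cd8, and an NK cell had Klrb1c or Ncr1 without Cd3, Trac, Cd8b1 or Cd4. Gates also required fewer than 3 UMIs over 10 marker genes of B cells, macrophages and neutrophils. The gates held 151 and 392 CD8 T cells, 137 and 237 CD4 T cells, 3 and 22 Foxp3-positive cells, and 34 and 105 NK cells in PBS and cmExoaCD11b. Of 797 and 1433 cells with a Cd3 UMI, 291 and 651 passed a T gate, and 245 and 415 were set aside because they had no Cd4, Cd8 or Foxp3 UMI.

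Genes of T and NK cells were looked up to check the gates. Trac, a T cell receptor chain, was at 633 and 528 CPM (UMIs of a gene per 1000000 UMIs of the class) in CD8 T cells and at 770.1 and 782 CPM in CD4 T cells, against 0 in NK cells, whose gate excludes it, and 0.846 and 1.08 CPM in neutrophils. Ncr1, part of the NK gate, was at 0 and 1.12 CPM in CD8 T cells. Eomes, a transcription factor of NK cells not used in the gate, was at 115 and 204 CPM in NK cells. It was also present in CD8 T cells, at 41.8 and 81.3 CPM. T cell genes not used in the NK gate were present in it, Cd28 at 51.2 and 167 CPM, Trbc2 at 32.0 and 95.5 CPM and Cd5 at 6.40 and 2.65 CPM. In CD8 T cells, Cd28 was at 283 and 359.6 CPM, Trbc2 at 1152 and 843 CPM and Cd5 at 91.6 and 144 CPM. The neutrophil gene S100a8 was present in every gate, at 1928 and 896 CPM in CD8 T cells, 473 and 3185 CPM in CD4 T cells and 8544 and 1618 CPM in NK cells. The share of UMIs estimated to come from free RNA was 9.95% and 4.09% in CD8 T cells, 2.52% and 12.4% in CD4 T cells, and 37.2% and 7.25% in NK cells. This estimate divided the S100a8 and S100a9 share of a class by that of barcodes under 100 UMIs. It came to 286% and 277% in neutrophils, so neutrophil RNA of any origin raised it. Although the mice are stated to be male, 75 PBS cells (1.10%) and 44 cmExoaCD11b cells (0.623%) held a UMI of Xist, and the libraries shared 15 barcodes (0.22% and 0.212% of cells). The part of these values in the results was not tested.

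All intervals given are 95% intervals (exact Poisson for CPM, exact Clopper-Pearson for shares of cells, exact conditional for ratios), and they cover counting error only. Since several UMIs of a gene can come from a single cell, the spread between cells and between mice is not in them. Ratios are those of cmExoaCD11b to PBS. A ratio of 1.5 or more in either direction, with at least 20 UMIs over both libraries, was counted as higher or lower. Levels are not compared between genes.

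Among the inhibitory receptors, Pdcd1 in CD8 T cells was at 156 CPM (133 to 183) with PBS and 94.2 CPM (80.5 to 109.6) with cmExoaCD11b, and in CD4 T cells at 72.6 and 81.4 CPM. Foxp3-positive cells of the cmExoaCD11b library had 323 CPM (209 to 477), and NK cells had no UMI in either library. By CPM, the PBS order was therefore CD8 above CD4 above NK. In cmExoaCD11b the CD8 and CD4 intervals overlapped below the Foxp3-positive cells. The share of cells with a Pdcd1 UMI in PBS was alike in CD8 (24.5%) and CD4 T cells (24.8%). Neutrophils, which should lack Pdcd1, had 0 and 0.169 CPM.

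Lag3, an inhibitory receptor for MHC class II, was at 43.8 CPM (31.8 to 58.8) and 33.1 CPM (25.2 to 42.7) in CD8 T cells. Its CD4 T cell level was 8.22 CPM (3.02 to 17.9) and 36.7 CPM (26.9 to 48.9). The CD8 gate was above the CD4 gate in PBS, and no class stood apart in cmExoaCD11b. Havcr2, which encodes TIM-3, was at 62.7 and 51.6 CPM in CD8 T cells and at 16.4 and 18.3 CPM in CD4 T cells, so CD8 T cells were above CD4 T cells in both libraries. Tigit, which competes with the costimulatory receptor CD226 for ligand, was at 21.5 to 38.4 CPM in CD8, CD4 and NK cells of both libraries, and no pair of those classes could be ordered.

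Ctla4, the inhibitory counterpart of CD28, had the order Foxp3-positive, CD4, CD8, NK in cmExoaCD11b, with 1216 CPM (983 to 1488), 297 CPM (267 to 328), 137 CPM (121 to 156) and 2.65 CPM (0.0672 to 14.8). Icos, the costimulatory relative of CD28, was at 425 and 372 CPM in CD4 T cells and at 105 and 114 CPM in CD8 T cells. Foxp3-positive cells (375 CPM, 251 to 539) could not be told from CD4 T cells in Icos, and NK cells held 1 and 4 UMIs.

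Of the TNF receptor superfamily members, Tnfrsf4 was at 218 and 228 CPM in CD4 T cells and at 46.8 and 6.73 CPM in CD8 T cells. The ratio of CD4 to CD8 T cells was 4.66 (3.34 to 6.59) in PBS and 33.9 (19.1 to 66.4) in cmExoaCD11b. Tnfrsf9 had the opposite order, with 309.6 and 146 CPM in CD8 T cells and 107 and 58.2 CPM in CD4 T cells. Tnfrsf18 was at 226 and 171 CPM in CD4 T cells and 75.6 and 57.2 CPM in CD8 T cells, a CD4 to CD8 ratio of 2.99 in PBS and 3.0 in cmExoaCD11b. By CPM, the OX40 and GITR genes were thus higher in the CD4 than in the CD8 gate of either library. The 4-1BB gene was higher in the CD8 gate. Foxp3-positive cells of cmExoaCD11b were above both gates, with Tnfrsf4 at 996 CPM, Tnfrsf9 at 1177 CPM and Tnfrsf18 at 634 CPM. The share of cells with a Tnfrsf9 UMI did not separate the CD8 and CD4 gates. It was 25.8% in CD8 and 27.7% in CD4 T cells of PBS, and 15.8% and 11.8% in cmExoaCD11b, with overlapping intervals.

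Tox was at 394 CPM (356 to 435) and 301 CPM (276 to 327) in CD8 T cells, 212 CPM (180.3 to 249) and 424 CPM (389 to 462) in CD4 T cells, and 38.4 CPM (14.1 to 83.6) and 326 CPM (271 to 389) in NK cells. The CD4 to CD8 ratio was 0.539 (0.445 to 0.650) in PBS and 1.41 (1.25 to 1.59) in cmExoaCD11b. By CPM, the order of the CD8 and CD4 gates was thus the other way round in the second library. A Tox UMI was found in 39.1% of CD8 and 48.9% of CD4 T cells in PBS, and in 33.9% and 54.9% in cmExoaCD11b. By share, the PBS intervals overlapped (31.2 to 47.3% and 40.3 to 57.6%). Those of cmExoaCD11b did not (29.3 to 38.9% and 48.3 to 61.3%), with CD4 above CD8 T cells. With each cell thinned to an equal number of UMIs, the CD8 and CD4 shares were 21.6% and 20.4% in PBS. They were 16.4% and 25.1% in cmExoaCD11b, and the thinned intervals overlapped in either library. In PBS, 22 CD8 T cells with 5 or more UMIs held 81.3% of the Tox UMIs.

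**Figure D1:**
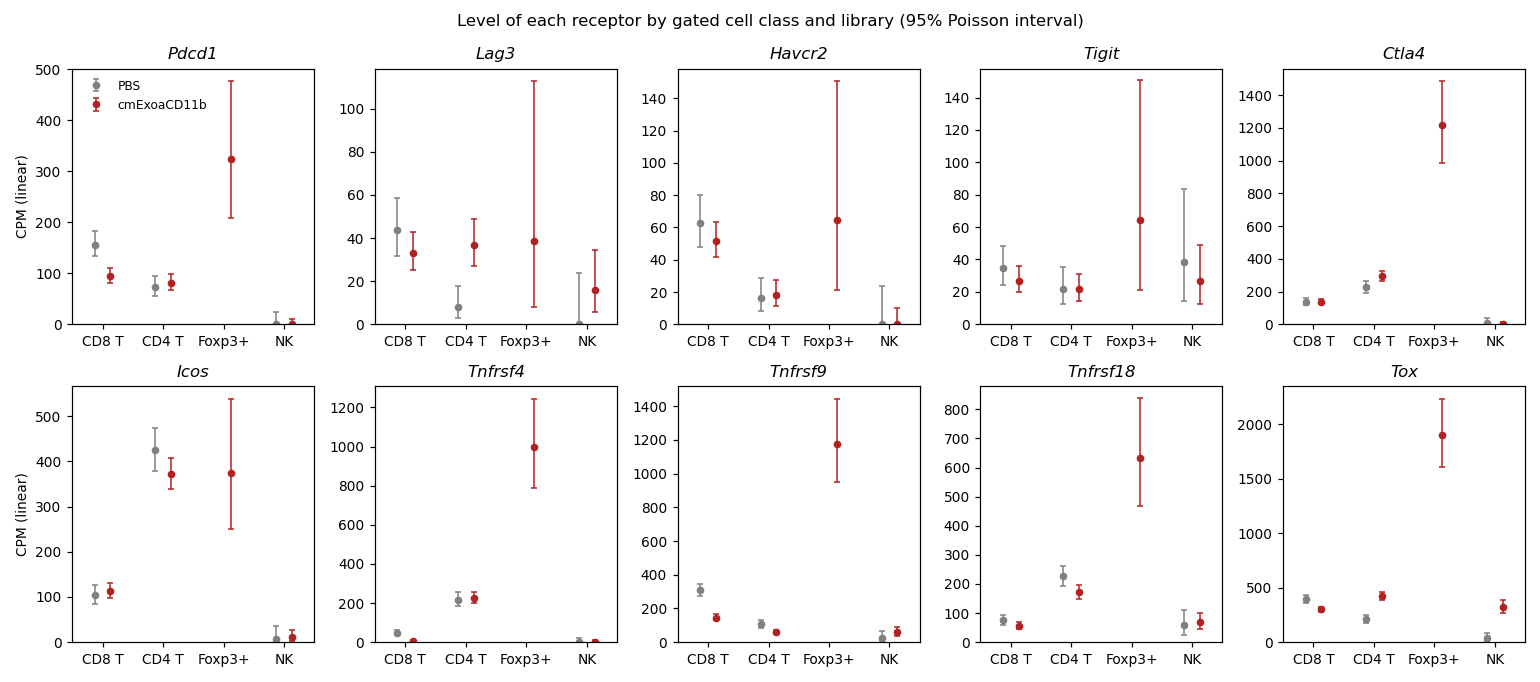
Level of each of the 10 genes in CPM (vertical axis) in CD8 T, CD4 T, Foxp3-positive and NK cells of the PBS and cmExoaCD11b libraries, with exact Poisson 95% intervals as bars. The 3 Foxp3-positive PBS cells are left out, and the Foxp3-positive cells of cmExoaCD11b have the highest Ctla4 (1216 CPM), Tnfrsf9 (1177 CPM) and Tox (1902 CPM).

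In CD8 T cells, 3 of the 10 genes were at least 1.5-fold lower in cmExoaCD11b and 0 were higher, against 14.8% lower and 18.0% higher of the 8823 genes with at least 20 UMIs. The 3 lower genes were Tnfrsf4, Tnfrsf9 and Pdcd1. The median ratio of the 10 genes was 0.760, and that of all genes was 1.03. When only the cut-off on ranked UMIs called cells, 50 and 53 CD8 T cells were left and 1 gene (Tnfrsf4, ratio 0.285) was lower. After each cell was thinned to 1000 UMIs, which gives every cell equal weight, Pdcd1 (1.51, 0.739 to 3.39), Havcr2 (1.70, 0.628 to 5.75) and Ctla4 (1.79, 0.997 to 3.46) were counted as higher, each with an interval that held 1. The lower genes with 20 UMIs were then Tnfrsf9 (0.448, 0.253 to 0.798), Tnfrsf18 (0.515, 0.199 to 1.38) and Tox (0.554, 0.410 to 0.753), so that Pdcd1 and Tnfrsf4, which kept 5 UMIs, were no longer among them.

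Tnfrsf4 had 47 UMIs in PBS and 12 in cmExoaCD11b CD8 T cells, or 46.8 CPM (34.4 to 62.2) and 6.73 CPM (3.48 to 11.8), and the ratio was 0.144 (0.0695 to 0.275). A UMI was found in 14 of 151 cells (9.27%, 5.16 to 15.1%) and in 7 of 392 cells (1.79%, 0.721 to 3.64%), at median depths of 4898 and 3810 UMIs. The cmExoaCD11b library was thus lower in both the level and the share of cells, and its share compares with 0.606% and 0.587% of neutrophils. In PBS, 4 cells with 5 or more UMIs held 33 of the 47 UMIs (70.2%), and cmExoaCD11b had no such cell. After thinning, 5 UMIs were left in PBS and 0 in cmExoaCD11b. The ratio was past 1.5-fold in each of the 13 alternative settings, from 0 to 0.334.

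Tnfrsf9 had 311 and 260 UMIs, or 309.6 CPM (276 to 346) and 146 CPM (129 to 165), a ratio of 0.471 (0.398 to 0.557). Cells with a UMI made up 25.8% (19.1 to 33.6%) and 15.8% (12.3 to 19.8%), and 10.8% and 6.01% after thinning. The UMIs sat in few cells. In PBS, 12 cells with 5 or more UMIs held 87.8% of all and a single cell held 74 (23.8%), and in cmExoaCD11b the top cell held 44 (16.9%). Without the top cell of each library the ratio was 0.498, and over 13 alternatives it ran from 0.404 to 0.790, past 1.5-fold in 12, the ranked cut-off being the exception. Tnfrsf9 was also lower in cmExoaCD11b outside the T cells, at 98.1 and 27.6 CPM in macrophages and monocytes, 9.10 and 1.28 CPM in neutrophils and 37.7 and 14.2 CPM in free RNA, whose part in the CD8 value was not tested beyond the setting that subtracts free RNA.

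Pdcd1 had 157 and 168 UMIs in CD8 T cells, a ratio of 0.603 (0.482 to 0.754). A UMI was found in 37 of 151 cells (24.5%, 17.9 to 32.2%) and 67 of 392 cells (17.1%, 13.5 to 21.2%). After thinning the shares were 6.76% and 7.57%, and the ratio of 1.51 after thinning came from 10 and 39 UMIs. Thinning was a single random draw, and the interval of that ratio (0.739 to 3.39) held 1, so no change of direction was shown. In PBS, 10 cells with 5 or more UMIs held 113 of the Pdcd1 UMIs, and in cmExoaCD11b 12 such cells held 76. When CD8 T cells were split at 4000 UMIs, a cut chosen after the data were seen, the ratio was 1.45 (0.715 to 3.32) below it and 0.522 (0.403 to 0.673) at or above it. Pdcd1 was thus lower among the deeper cells and not among the shallower ones, a difference that was not tested, and a mean over cells gave 0.944.

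As summed CPM, the other inhibitory receptors did not pass 1.5-fold in CD8 T cells. The ratio was 0.756 (0.503 to 1.14) for Lag3, 0.823 (0.591 to 1.15) for Havcr2, 0.773 (0.490 to 1.23) for Tigit and 1.00 (0.809 to 1.24) for Ctla4. All 4 intervals held 1. A Tigit UMI was found in 20.5% (14.4 to 27.9%) and 10.5% (7.61 to 13.9%) of cells, and in 3.38% and 3.13% after thinning. A mean over cells gave 0.541 for Tigit, past 1.5-fold. Among the remaining genes the ratio was 1.09 (0.857 to 1.39) for Icos, 0.756 (0.557 to 1.03) for Tnfrsf18 and 0.763 (0.669 to 0.871) for Tox. The Tox interval lay below 1 without reaching the 1.5-fold limit, and its range over 13 alternatives was 0.554 to 0.959.

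**Figure D2:**
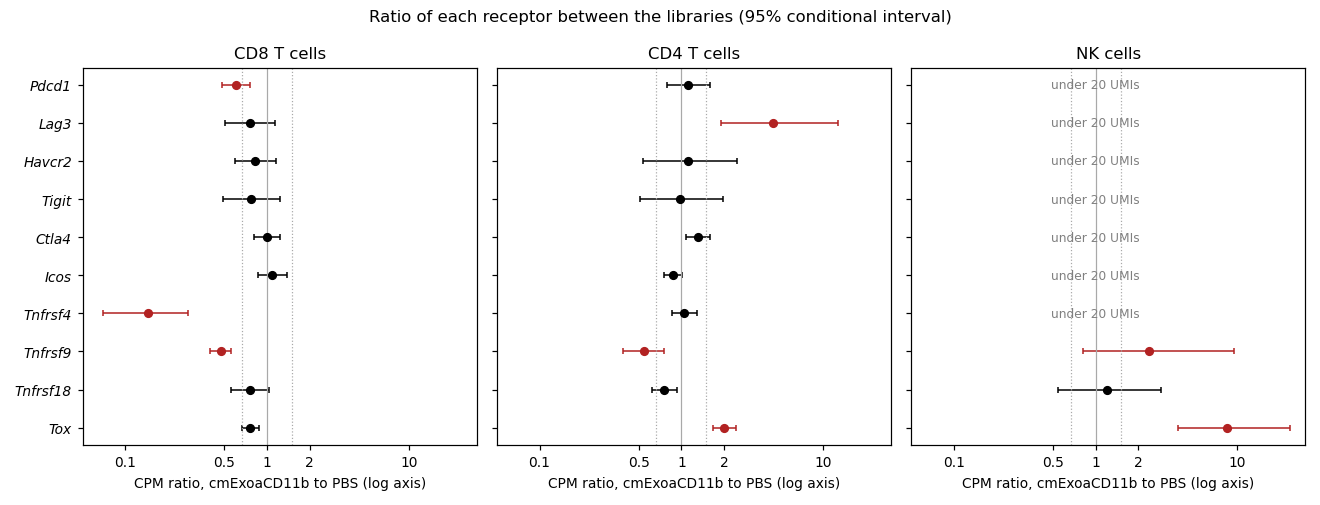
CPM ratio of cmExoaCD11b to PBS for each gene (horizontal log axis) in CD8 T, CD4 T and NK cells, with exact conditional 95% intervals, a solid line at 1 and dotted lines at 1.5-fold. Red points are past 1.5-fold, among them Tnfrsf4 in CD8 T cells (0.144), Lag3 in CD4 T cells (4.46) and Tox in NK cells (8.50).

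**Figure D3:**
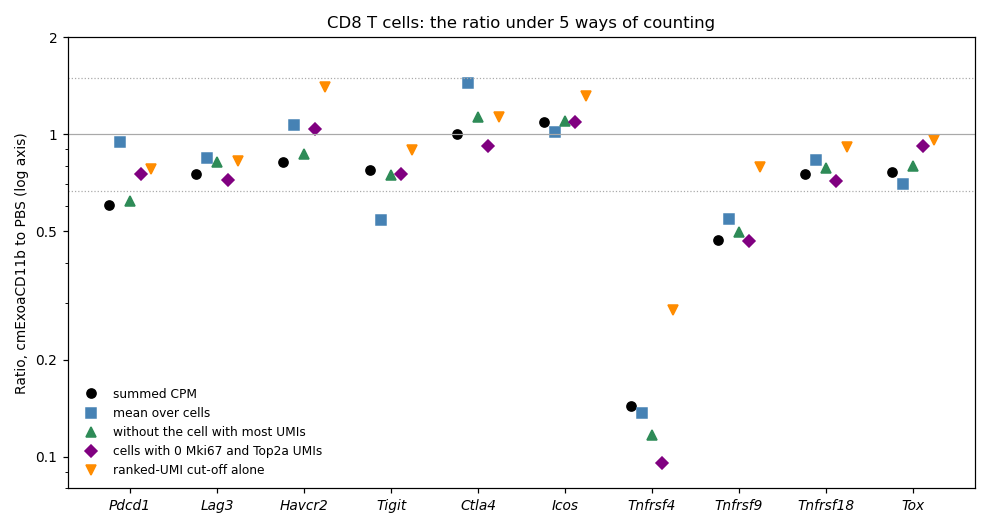
Ratio of cmExoaCD11b to PBS (vertical log axis, solid line at 1, dotted lines at 1.5-fold) for each gene in CD8 T cells, as summed CPM, as a mean over cells, without the cell with most UMIs, in cells with 0 Mki67 and Top2a UMIs, and with the ranked cut-off alone. Tnfrsf4 lies below every other gene in each of these 5, and Pdcd1 runs from 0.603 as summed CPM to 0.944 as a mean over cells, whereas its value after thinning (1.51) is not drawn.

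The promoters of the 3 genes that were lower in CD8 T cells are shown because their regulation by T cell receptor signalling is well known. RefSeq starts were given for 7 of the 10 genes, with 8 starts in all, since Tnfrsf9 has a pair, and none was given for Lag3, Icos and Tox. The 250 bases before each start are from GRCm38.p6, 5′ to 3′ on the strand of the gene. Capitals mark matches, on either strand, to the AP-1 letters TGANTCA, the NFAT core GGAAA, the STAT letters TTCNNNGAA, the interferon-response letters GAAA and GAAA with any 2 bases between them, or the NF-kB motif.
Tnfrsf4, chr4:156013445-156013694, plus strand: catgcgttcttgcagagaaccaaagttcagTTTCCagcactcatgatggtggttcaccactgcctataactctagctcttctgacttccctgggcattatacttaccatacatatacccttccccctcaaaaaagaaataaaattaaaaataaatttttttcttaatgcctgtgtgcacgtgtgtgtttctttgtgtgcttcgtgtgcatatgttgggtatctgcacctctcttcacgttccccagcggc
Tnfrsf9, first start, chr4:150919905-150920154, plus strand: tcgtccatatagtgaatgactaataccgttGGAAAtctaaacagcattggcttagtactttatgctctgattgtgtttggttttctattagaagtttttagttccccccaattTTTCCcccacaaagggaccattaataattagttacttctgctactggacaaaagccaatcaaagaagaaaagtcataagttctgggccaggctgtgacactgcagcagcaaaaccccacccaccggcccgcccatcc
Tnfrsf9, second start, chr4:150927749-150927998, plus strand: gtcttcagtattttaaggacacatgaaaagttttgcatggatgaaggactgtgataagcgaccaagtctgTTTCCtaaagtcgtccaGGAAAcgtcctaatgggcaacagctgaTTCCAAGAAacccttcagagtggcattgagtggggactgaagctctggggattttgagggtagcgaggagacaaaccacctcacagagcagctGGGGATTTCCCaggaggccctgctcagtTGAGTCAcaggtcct
Pdcd1, chr1:94052554-94052803, minus strand: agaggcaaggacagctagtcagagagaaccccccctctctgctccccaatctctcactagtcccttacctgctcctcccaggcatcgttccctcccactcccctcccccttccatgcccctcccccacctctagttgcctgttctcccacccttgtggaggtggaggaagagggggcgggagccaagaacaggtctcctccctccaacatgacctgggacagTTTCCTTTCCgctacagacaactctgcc

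The second start of Tnfrsf9 was the one with most matches, 1 of AP-1 at 15 bases before the start, 3 of NFAT, 1 of the STAT letters and 3 overlapping ones of NF-kB at 43 and 42 bases, of which 4 matches overlapped another motif. Tnfrsf4 had 1 NFAT match at 220 bases and Pdcd1 had 2, at 28 and 23 bases. NFAT letters were found in 55.6% of 32851 promoters of the same length, AP-1 in 6.75%, the STAT letters in 7.02%, NF-kB in 7.25% and the interferon-response letters in 2.98%. A match is a description of letters, not a binding site, and the interferon-response letters were in none of the 8 windows. The first 20 bases after the RefSeq start of Tnfrsf4 lie in no transcript of the gene annotation given, and that start may differ from the one used in these cells.

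Within CD8 T cells, 46 PBS cells (30.5%) and 93 cmExoaCD11b cells (23.7%) had a UMI of the proliferation genes Mki67 or Top2a, 66 (43.7%) and 233 (59.4%) had a UMI of Gzma, Gzmb or Gzmk without these, and 39 (25.8%) and 66 (16.8%) had neither. In proliferating cells Pdcd1 was at 191 and 99.9 CPM, a ratio of 0.523 (0.369 to 0.737), and in granzyme-positive cells it was at 129.9 and 98.5 CPM, a ratio of 0.758 (0.529 to 1.10). Tnfrsf4 had a ratio of 0.244 (0.0965 to 0.544) in proliferating and 0.0625 (0.00679 to 0.281) in granzyme-positive cells. It was thus lower in both subsets, although the granzyme-positive cells of cmExoaCD11b held only 2 UMIs. Tnfrsf9 had a ratio of 0.577 (0.454 to 0.730) and 0.379 (0.286 to 0.501). Ctla4 was at 149 and 187 CPM in proliferating cells, a ratio of 1.25 (0.923 to 1.71). In the cells with neither, Tnfrsf9 was at 143 and 138 CPM, a ratio of 0.967 (0.547 to 1.76), Pdcd1 had a ratio of 0.672 (0.316 to 1.46), and Tnfrsf4, with 5 and 2 UMIs, one of 0.209 (0.0199 to 1.28). The lower Tnfrsf9 was thus seen in the proliferating and granzyme-positive cells, and the few UMIs of the remaining cells left wide intervals. Differences between the subsets were not tested.

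**Figure D4:**
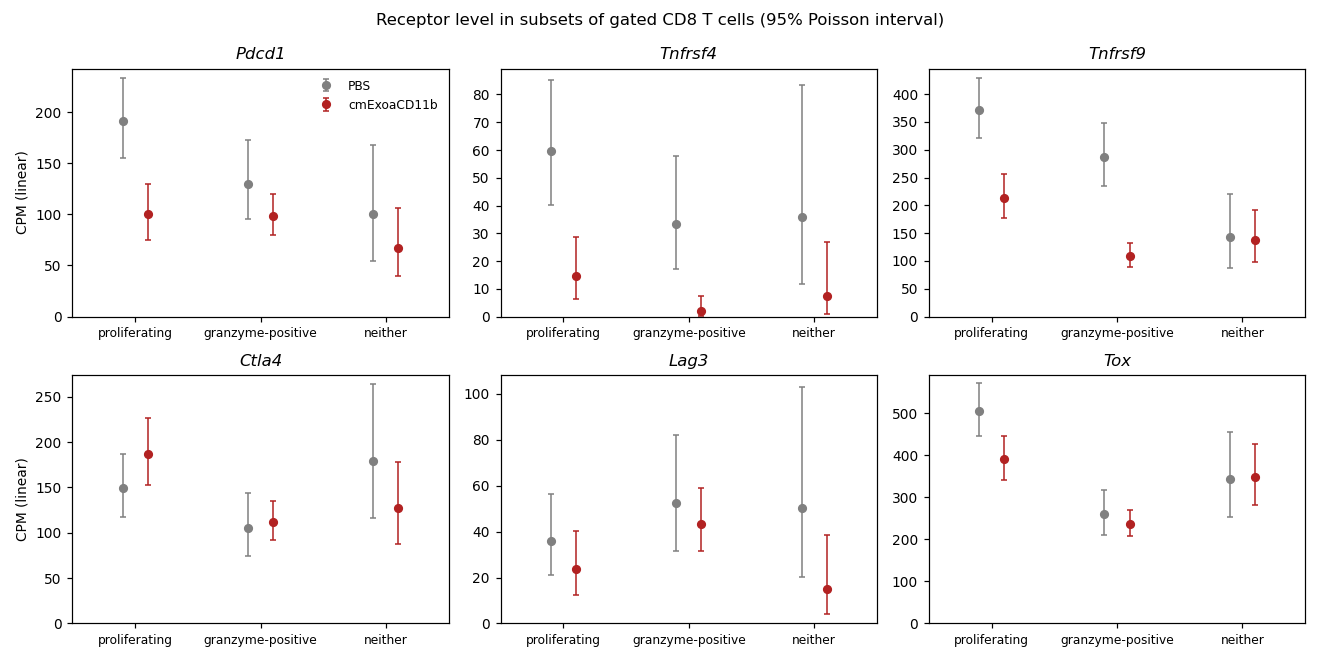
Level in CPM (linear vertical axis) of Pdcd1, Tnfrsf4, Tnfrsf9, Ctla4, Lag3 and Tox in proliferating CD8 T cells, granzyme-positive ones and those with neither, PBS in gray and cmExoaCD11b in red, with exact Poisson 95% intervals. Tnfrsf9 is at 372 and 214 CPM in proliferating cells and at 287 and 109 CPM in granzyme-positive cells, with intervals that do not overlap, and at 143 and 138 CPM in the others.

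In CD4 T cells, 2 of the 10 genes were at least 1.5-fold higher in cmExoaCD11b, against 12.8% of 8145 genes, and 1 was lower, against 10.1%. Tox had 155 and 532 UMIs, or 212 and 424 CPM, a ratio of 2.0 (1.67 to 2.41). A UMI of Tox was found in 48.9% and 54.9% of cells, at median depths of 5019 and 4647 UMIs. Lag3 had 6 and 46 UMIs, a ratio of 4.46 (1.90 to 12.8), in 4 of 137 and 22 of 237 cells. Tnfrsf9 had 78 and 73 UMIs, or 107 and 58.2 CPM, a ratio of 0.545 (0.390 to 0.759), in 27.7% and 11.8% of cells. Lag3 was thus seen in few cells of either library. The share of cells with Tox was similar in both, and cells with 5 or more UMIs held 28.4% of its UMIs in PBS and 66.4% in cmExoaCD11b. After thinning, the ratio was 1.86 (1.24 to 2.86) for Tox and 0.583 (0.249 to 1.37) for Tnfrsf9. That of Lag3 was 4.66 (0.625 to 207), on 1 and 8 UMIs. The Lag3 and Tnfrsf9 intervals thus held 1. The thinned share of cells with Tnfrsf9 was 8.76% (4.61 to 14.8%) and 5.11% (2.67 to 8.75%), with overlapping intervals.

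The other genes of CD4 T cells were nearer to 1. Ctla4 was at 227 and 297 CPM, a ratio of 1.30 (1.08 to 1.58), in 40.1% and 40.5% of cells. Icos had a ratio of 0.875 (0.756 to 1.01), Tnfrsf4 of 1.05 (0.860 to 1.28) and Tnfrsf18 of 0.758 (0.616 to 0.935). Pdcd1 was at 1.12 (0.796 to 1.59), Havcr2 at 1.12 (0.533 to 2.46) and Tigit at 0.982 (0.511 to 1.95). The share of cells with Tnfrsf4 was 49.6% and 32.9%, and 16.8% and 15.7% after thinning, so the unthinned share went against the CPM.

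Ikzf2 and Il2ra, both also transcribed by regulatory T cells, were higher in cmExoaCD11b within the Foxp3-negative CD4 gate, and were picked after their values were seen. Ikzf2, which encodes Helios, was at 34.3 and 169.9 CPM, a ratio of 4.96 (3.27 to 7.84), and Il2ra at 20.6 and 51.8 CPM, a ratio of 2.52 (1.42 to 4.76). In CD4 T cells with 0 UMIs of Ikzf2 and Il2ra (112 and 162 cells, a setting added after the data were seen), no gene was counted as higher and 4 were lower. The share of all genes past 1.5-fold was not computed for these cells. The ratio was then 1.67 for Lag3, 1.40 for Tox, 0.781 for Ctla4, 0.473 for Tnfrsf4, 0.300 for Tnfrsf9, 0.594 for Tnfrsf18 and 0.537 for Pdcd1. The Lag3 ratio stayed past 1.5-fold, on fewer than 20 UMIs, and that of Tox did not. The part of Foxp3-negative cells with these genes in the CD4 values was not tested.

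The Foxp3-positive cells numbered 3 in PBS, where 1 UMI equals 185 CPM, and 22 in cmExoaCD11b. In the cmExoaCD11b library, where Ikzf2 was at 3299 CPM and Il2ra at 659.8 CPM in these cells, Tnfrsf9 was 20.2-fold (14.7 to 27.9), Tox 4.48-fold (3.71 to 5.39), Tnfrsf4 4.37-fold (3.35 to 5.63), Ctla4 4.10-fold (3.23 to 5.15), Pdcd1 3.98-fold (2.46 to 6.21) and Tnfrsf18 3.70-fold (2.65 to 5.06) the level of CD4 T cells. Icos (1.01, 0.668 to 1.47) and Lag3 (1.06) were at about the level of CD4 T cells, within wide intervals. A single cell held 34 of the 77 Tnfrsf4 UMIs (44.2%). Between the libraries, 7 of the 10 genes had at least 20 UMIs, of which 3 were higher (24.1% of 858 genes) and 1 was lower (24.2%). Of these, Tnfrsf4 had 0 and 77 UMIs, 1.79-fold higher in cmExoaCD11b against a floor of 3 UMIs in PBS. The interval of its ratio began at 1.42. Tox had 4 and 147 UMIs, a ratio of 2.57 (0.982 to 9.55). The gate held 5401 UMIs in PBS and 77295 in cmExoaCD11b, so genes reached 20 UMIs mainly through cmExoaCD11b. With 3 cells on one side, these counts describe those cells.

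NK cells held a UMI of 7 of the 10 genes, and Pdcd1, Havcr2 and Tnfrsf4 had none in 34 and 105 cells, which by a floor of 3 cells allows shares of up to 8.82% and 2.86% of cells with a UMI. Of the 3 genes with at least 20 UMIs, 2 were higher in cmExoaCD11b, against 35.0% of 4527 genes, and 0 were lower, against 17.4%. The gate held 156249 UMIs in PBS and 377006 in cmExoaCD11b, and these 3 genes reached 20 UMIs mainly through cmExoaCD11b. Tox had 6 and 123 UMIs, or 38.4 and 326 CPM, a ratio of 8.50 (3.79 to 23.6), and was found in 17.6% (6.76 to 34.5%) and 41.9% (32.3 to 51.9%) of cells. After thinning these shares were 12.9% and 21.8%, and the ratio of UMIs was 2.38 (0.841 to 9.28). Tnfrsf9 had 4 and 23 UMIs, a ratio of 2.38 (0.814 to 9.48), and Tnfrsf18 had 9 and 26 UMIs, a ratio of 1.20 (0.544 to 2.90). The NK gate of PBS had a higher free RNA estimate than that of cmExoaCD11b (37.2% and 7.25%), and Tox had a ratio of 10.2 with free RNA subtracted.

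The level of the genes in other classes gives the background. Havcr2, which myeloid cells also transcribe, was at 183 and 154 CPM in dendritic cells and at 38.3 and 58.5 CPM in macrophages and monocytes. Tnfrsf18 was at 14.2 and 13.3 CPM in neutrophils, against 75.6 and 57.2 CPM in CD8 T cells. In B cells, Ctla4 was at 25.3 and 24.0 CPM and Tox at 13.5 and 11.3 CPM. The Tnfrsf18, Ctla4 and Tox levels given here were below those of the CD8 and CD4 T cells of the same library, and free RNA was estimated at 1.97% and 7.16% of B cell UMIs. Havcr2 in dendritic cells was above its level in CD8 T cells (62.7 and 51.6 CPM) and CD4 T cells (16.4 and 18.3 CPM). In macrophages and monocytes Havcr2 was above its level in CD4 T cells.

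Detected genes per cell were counted after thinning to 1000 UMIs. Of the 10, 2 or more were found in 27 of 148 PBS and 57 of 383 cmExoaCD11b CD8 T cells (18.2%, 12.4 to 25.4%, and 14.9%, 11.5 to 18.8%), a ratio of 0.816 (0.508 to 1.34). The unthinned shares were 54.3% and 42.6%. In CD4 T cells the thinned shares were 40.1% and 34.0%, a ratio of 0.848 (0.594 to 1.22). Both intervals held 1, so no difference was detectable at this depth, and in the Foxp3-positive cells of cmExoaCD11b it was 81.8%. NK cells had none of the 10 genes in 67.7% and 67.3% of cells.

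**Figure D5:**
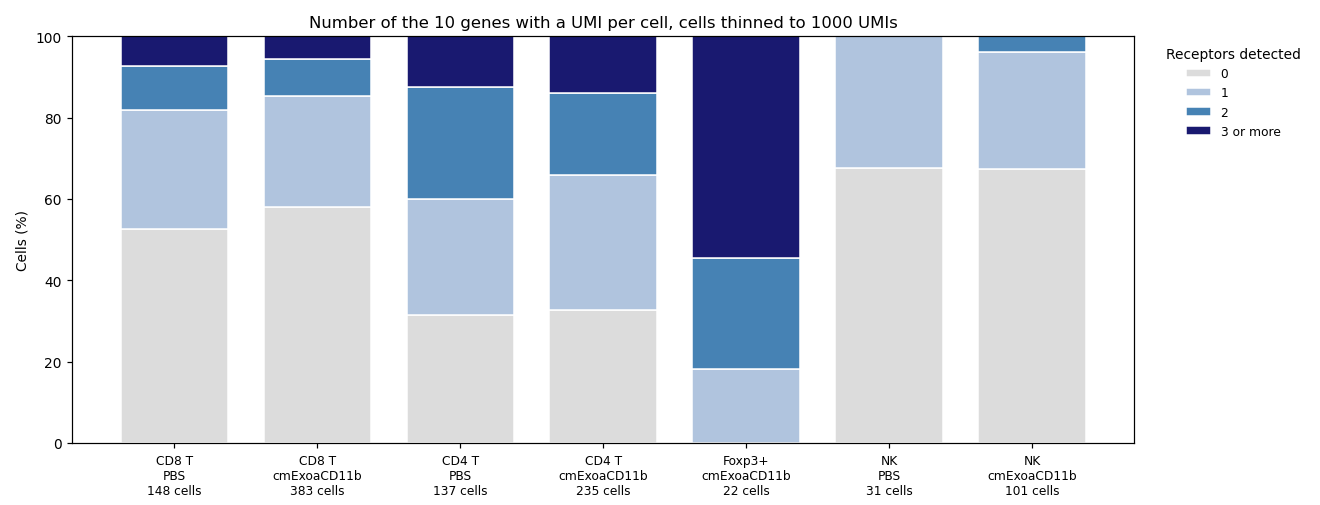
Share of cells (percent) by the number of the 10 genes detected after thinning to 1000 UMIs, for each class and library, without the 3 Foxp3-positive PBS cells. CD8 T cells with 2 or more genes make up 18.2% in PBS and 14.9% in cmExoaCD11b.

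CD8 T cells with Pdcd1 also carried Tox more often than CD8 T cells without it. Among CD8 T cells with a Pdcd1 UMI, Tox was present in 30 of 37 PBS cells (81.1%) and 49 of 67 cmExoaCD11b cells (73.1%), against 25.4% and 25.8% of the others. Deeper cells show more of every gene, and the Pdcd1-positive cells had medians of 6165 and 4392 UMIs against 4659 and 3769 for the rest. After thinning Tox was in 6 of 10 and 13 of 29 Pdcd1-positive cells against 18.8% and 14.1% of the rest. The pairing of Tox with Pdcd1 in CD8 T cells was thus seen at equal depth in both libraries. The PBS intervals just overlapped (26.2 to 87.8% and 12.7 to 26.4%). In CD4 T cells after thinning, Tox was in 2 of 11 Pdcd1-positive PBS cells, against 20.6% of the rest. In cmExoaCD11b it was in 7 of 18, against 24.0%. The 14 PBS CD8 T cells with Tnfrsf4 carried Tnfrsf9 in 85.7%, Tox in 85.7% and Pdcd1 in 78.6%, at a median of 8605 UMIs, against 19.7%, 34.3% and 19.0% of the others at 4757 UMIs. After thinning, 5 cells had Tnfrsf4, of which 3 carried Tnfrsf9, 2 Tox and 1 Pdcd1, too few to compare.

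The wider pathway was read from lists of other receptors, transcription factors and adaptors. In CD8 T cells, 20 of 22 other receptors had at least 20 UMIs, and 6 were higher and 2 lower (18.0% and 14.8% of all genes), with a median ratio of 1.25 against 1.03 over all genes. The higher ones included Klrg1, a marker of terminal effector cells (38.8 and 90.9 CPM, ratio 2.34), and Cd69, an early activation marker (319 and 543 CPM, ratio 1.70), and the lower ones were Cd160 (113 and 52.7 CPM, ratio 0.465) and Cd200 (34.8 and 3.93 CPM, ratio 0.113). Of 16 transcription factors, 8 were higher and 3 lower, against the same 18.0% and 14.8%, with a median of 1.46. The highest ratio among them was that of Nr4a3 (78.6 and 214 CPM, 2.72), followed by Batf (2.43). Tbx21, which drives the effector programme, was at 199 and 435 CPM (2.19) and Eomes at a ratio of 1.95. The other higher ones were Nfatc2 (1.86), Nr4a2 (1.61), Prdm1 and Nr4a1, and the lower ones were Tox2 (0.564), Ikzf2 (0.558) and Id3 (0.620). The intervals of Tox2 (0.249 to 1.28, on 14 and 14 UMIs) and Id3 (0.323 to 1.20, on 20 and 22 UMIs) held 1. That of Ikzf2 (0.461 to 0.677) did not. Among 12 adaptors, with a median of 1.08, 1 was higher, the phosphatase Inpp5d (1.61).

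In CD4 T cells, 6 of 18 other receptors were higher and 0 lower, against 12.8% and 10.1% of all genes, with a median of 1.25 against 1.03. Among the higher ones were Cd27 (1.86), a TNF receptor family costimulator, and Btla (2.72), an inhibitory receptor. Cd200, which was lower in CD8 T cells, was higher here (25.6, 4.36 to 1034), on 1 and 44 UMIs. Of 15 transcription factors, 4 were higher, including Tox2 (8.73) and Tcf7 (1.54), and 1 was lower, Irf4 (0.530), with a median of 1.05. Among 12 adaptors, with a median of 1.11, 1 was higher, Ptpn6 (1.56). In NK cells, 10 of 10 other receptors and 10 of 12 transcription factors were higher, against 35.0% of all genes. The list medians were 1.96 and 1.90 against 1.20 for all genes, and of 10 adaptors 5 were higher and 1 lower. Many of these genes reached 20 UMIs mainly through cmExoaCD11b, such as Batf (2 and 38 UMIs) and Cd226 (3 and 42 UMIs). Some intervals held 1, as for Cd160 (0.694 to 8.34) and Klrg1 (0.639 to 5.91), and others did not, as for Cd69 (1.03 to 2.61). The free RNA estimate of the NK gate was 37.2% in PBS and 7.25% in cmExoaCD11b. The NK genes Ncr1 (269 and 586 CPM), Gzma (3424 and 6270.5 CPM) and Prf1 (378 and 581 CPM) were also higher. The part of the gate's make-up in the NK counts was not tested. In Foxp3-positive cells 0 of 4 other receptors and 0 of 4 adaptors were past 1.5-fold, and of 5 transcription factors 3 were higher and 1 lower, against 24.1% and 24.2% of all genes, with 3 PBS cells behind the ratios.

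The genes whose levels most resembled the mean of the 10 over 8 classes in both libraries (16 points, from 8380 genes) were Rora (Pearson r = 0.947), Aebp2 (0.939), Gm20275 (0.938), Sntb1 (0.937) and Cd27 (0.930). The points share 2 libraries, so this is a description. Each of the 10 is part of the mean, which raises its own correlation, and among them Tox (0.918) and Pdcd1 (0.915) followed the mean most closely and Havcr2 (0.396) least.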

How the data were processed

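For each treatment 1 library of UMI counts was deposited, unnormalized and with empty droplets included. The headers name Cell Ranger 7.1.0 and the methods 3.0.2, and the genome build is not given in the sources used here. Barcodes above the 99th percentile of the 3000 largest divided by 10, or with at least 500 UMIs and different from empty droplets (10000 simulations, false discovery rate 0.01), were called cells, and kept from 200 genes up if mitochondrial UMIs were 20% or less. Scrublet's threshold marked 0 cells, so the highest scores were removed at 0.8% per 1000 cells (5.79% and 6.00%). Gates, lists and intervals are as given above, thinning was to 1000 UMIs, and the likeness used log2(CPM + 10) with at least 50 UMIs. The named genes are the 10 members, list genes past 1.5-fold with 20 UMIs, and the 5 most alike. The members and lists were chosen with earlier results of these data known. The scripts were tested on simulated data. Python 3.11.15, numpy 2.4.6, scipy 1.17.1, pandas 2.3.3, scanpy 1.11.5 and scikit-learn 1.9.0 were used. Some details of the tumor model and a finer split of the CD8 T cells are not reported here.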

Additional observations from a re-analysis of the deposited data

Results flagged for a closer look

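Tnfrsf4 had a ratio of cmExoaCD11b to PBS of 0.144 in CD8 T cells. In Foxp3-positive cells PBS held 3 cells and 0 UMIs, and Tnfrsf4 was 1.79-fold higher in cmExoaCD11b against a floor of 3 UMIs. Of the 22 cmExoaCD11b cells there, 2 held 58 of the 77 UMIs and 9 held none. Tox had a ratio of 0.763 in CD8 T cells, 2.0 in CD4 T cells and 8.50 in NK cells. In both cases the ratios lay on opposite sides of 1 between classes, for Tnfrsf4 with only 3 PBS cells on one side. These differences were not tested.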

How the results depend on the processing

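Of 347 values of 28 gene ratios under 16 planned settings and 3 chosen after seeing the data, 300 stayed within the counting interval of the main ratio, 44 left it, and 3 crossed 1 where the main ratio was past 1.5-fold. These 3 were Pdcd1 in CD8 T cells when thinned (1.51), and in Foxp3-positive cells, inside the main interval, with no doublets removed (1.16) and with no other-lineage limit (2.25). The thinned value came from a single random draw, and its own interval (0.739 to 3.39) held 1. Among 16 ratios under 1.5-fold and other than 1.00, 11 crossed 1 in at least 1 setting (36 values), among them Havcr2 in CD8 T cells (1.70) and Tnfrsf18 in NK cells (0.409) when thinned, and Pdcd1 (0.537), Ctla4 (0.781) and Tnfrsf4 (0.473) in CD4 T cells without Ikzf2 and Il2ra. Counts of genes within 1.5-fold of the main count were treated as unmoved and are not listed. The count of higher genes in CD8 T cells moved from 0 to 3 when thinned. That of lower genes moved from 3 to 1 with the ranked-UMI cut-off alone (50 and 53 cells). Pdcd1 in CD8 T cells (0.603) was not counted as lower at 2-fold. It was past 1.5-fold in 10 of 13 alternatives, 1 of them (thinned) on the other side of 1. In CD4 T cells higher genes moved from 2 to 1 when thinned and at 2-fold and to 0 without Ikzf2 and Il2ra, and lower genes from 1 to 2 when thinned, 0 at 2-fold and 4 without Ikzf2 and Il2ra. In Foxp3-positive cells higher genes moved from 3 to 5 (no doublets removed), 6 (no other-lineage limit) and 1 (thinned, 2-fold), and lower genes from 1 to 0 (no doublets removed, T cell receptor genes accepted, no other-lineage limit, thinned, mean over cells, 2-fold, without the top cell) and 2 (no UMI minimum). In NK cells higher genes moved from 2 to 1 (ranked cut-off, 0 other-lineage UMIs, Ncr1 required, thinned), and lower genes from 0 to 1 (Ncr1 required, mean over cells, no UMI minimum). The share of CD8 T cells with 2 or more genes moved from a ratio of 0.816 to 1.42 under the ranked cut-off, which gave no value for Foxp3-positive cells (0 in PBS). The share of all genes past 1.5-fold was computed in the main setting only, so the other counts have no such share beside them. The causes were not tested. No paired analysis was possible because there is 1 library per treatment, from pools of different mice. Pooled mice and few Foxp3-positive and NK cells limit every value.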
